A study of Homo sapiens with 8 samples.

Results

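The genes described here are GPNMB and 9 genes of the MiT/TFE pathway: the transcription factors MITF, TFEB, TFE3 and TFEC, the Rag GTPases RRAGC and RRAGD, and folliculin (FLCN) with its partners FNIP1 and FNIP2. They are 10 of the 38637 genes in the count table. GPNMB was selected on its measured level in these same libraries, so that its values are given as a description with no test. The other 9 were taken by name for their known relation to the MiT/TFE factors, with earlier results of these data known. Of these, 7 were tested, and TFEC and RRAGD had too few counts.

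The data are RNA-seq counts from SW1990, an established human pancreatic adenocarcinoma cell line, in 4 groups of 2 libraries each. Cells with an empty vector (Vector) were compared with cells overexpressing the transcription factor EBF2 (EBF2-OE). Vehicle-treated cells (Vehicle) were compared with cells given GSK-LSD1, an inhibitor of the histone demethylase KDM1A (LSD1), at a labelled dose of 2000 µM. The study compared these groups to profile transcription in cells in which the histone mark H3K4me1 was to be raised by the inhibitor or EBF2 was overexpressed. All groups come from 1 cell line, the labels number the libraries 2 and 3 for Vector and EBF2-OE and 1 and 2 for Vehicle and GSK-LSD1, and the labels state neither a treatment time nor separate cultures. The p-values therefore measure only the spread between these libraries, which may be technical.

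The MiT/TFE factors are basic helix-loop-helix leucine zipper proteins that bind E-box and M-box sequences and switch on genes of lysosomes and autophagy. At the lysosome, Rag GTPases bring MiT/TFE proteins to the kinase complex mTORC1, whose phosphorylation keeps them in the cytoplasm, and folliculin with FNIP1 or FNIP2 is the GTPase-activating protein for RRAGC and RRAGD. GPNMB is a glycoprotein of the cell surface and of lysosome-related organelles, known as a target of MITF in pigment cells and osteoclasts and as a marker of TFE3 activity in kidney tumours. The control of these factors is largely by phosphorylation and location, which RNA-seq does not measure.

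The promoters that hold a match to an M-box or to the CLEAR core, the motif named for coordinated lysosomal gene regulation, are shown because these are the sequences that MiT/TFE factors are known to bind. Promoters of 9 of the 10 genes were taken from RefSeq (build GRCh38.p14), from 250 bases before to 50 after the annotated start, and RRAGD had no entry. The motifs searched on both strands were the M-box TCATGTG, the CLEAR core TCACGTG and the E-box CACGTG, which lies inside the CLEAR core. Matches were found in 3 of the 9 promoters. The 200 bases before the start are printed 5′ to 3′ on the strand of the gene, and capitals mark the M-box matches of GPNMB and the CLEAR core matches of RRAGC and FNIP1. The windows are chr7:23246575-23246774 on the plus strand for GPNMB, chr1:38859773-38859972 on the minus strand for RRAGC and chr5:131797018-131797217 on the minus strand for FNIP1.
GPNMB: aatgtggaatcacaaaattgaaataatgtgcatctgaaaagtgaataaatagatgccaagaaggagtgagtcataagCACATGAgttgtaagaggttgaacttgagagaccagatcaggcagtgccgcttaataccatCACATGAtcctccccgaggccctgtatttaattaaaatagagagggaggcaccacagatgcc
RRAGC: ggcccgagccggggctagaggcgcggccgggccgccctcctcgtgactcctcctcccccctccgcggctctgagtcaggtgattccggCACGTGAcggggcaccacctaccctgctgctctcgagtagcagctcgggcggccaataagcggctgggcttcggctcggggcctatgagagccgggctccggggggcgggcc
FNIP1: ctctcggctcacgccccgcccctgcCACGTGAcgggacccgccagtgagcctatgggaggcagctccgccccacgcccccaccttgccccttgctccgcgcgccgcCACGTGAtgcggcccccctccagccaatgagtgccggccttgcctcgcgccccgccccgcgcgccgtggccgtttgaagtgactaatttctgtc

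The GPNMB promoter held M-boxes at -123 and -62, counted to the first base of the match with the start base as 0, and both read as CACATGA on the strand of the gene. An M-box was present in 2.92% of 35116 promoters of the same length, and 2 or more of them in 0.0968%. The RRAGC promoter held a CLEAR core at -112, and the FNIP1 promoter held CLEAR cores at -175 and -94. A CLEAR core was present in 3.71% of the promoters, 2 or more in 1.1%, and the E-box in 7.26%. The promoters of MITF, TFEB, TFE3, TFEC, FLCN and FNIP2 held none of these letters in this window. For each gene 1 annotated start was searched, and any other start was not looked at. The TFEC window, chr7:116030714-116031013, lies inside the bounds of the gene in the counts (115935152 to 116159891). So does the TFEB window, chr6:41735559-41735858, inside 41683978 to 41736223. For TFEB and TFEC the outermost start was therefore not searched. These matches are letters in a sequence, and binding was not measured here.

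The libraries held between 20453362 and 27054876 counts on genes. EBF2 had 28 counts in each Vector library, 5818 in EBF2-OE 2 and 90100 in EBF2-OE 3, so that the overexpression differed greatly between the EBF2-OE libraries. Of the epithelial markers, KRT8, KRT18, KRT7 and MUC1 were abundant, whereas KRT19 (0 to 21 counts), EPCAM (4 to 20) and CDH1 (7 to 57), which define many ductal cancer cells, were at or near 0. Genes count as called where the change exceeded 1.5-fold and the adjusted p was under 0.05 (edgeR, quasi-likelihood test, Benjamini-Hochberg over all genes tested). By this rule 406 genes rose and 328 fell with GSK-LSD1. In EBF2-OE against Vector 148 genes passed the fold limit at an unadjusted p under 0.05.

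GPNMB lies on chromosome 7 at 23246766 to 23275110 of hg38, on the plus strand. Its normalised level, as counts per size of library with TMM factors (CPM), was 11.3 and 12.6 in Vehicle 1 and 2 and 68.1 and 63.2 in GSK-LSD1 1 and 2. Both treated libraries lay far above both Vehicle libraries, and within each of these groups the libraries differed by at most 1.11-fold. The log2 fold change was 2.45 (SE 0.0823, n = 2 a group), or 5.47-fold, the 11th highest of 16059 genes tested. In Vector 2 and 3 the level was 15.2 and 29.4 CPM, and in EBF2-OE 2 and 3 it was 13.5 and 34.6 CPM. These groups overlapped, and in each the library numbered 3 was the higher, by 1.93-fold in Vector and 2.56-fold in EBF2-OE. The log2 fold change of EBF2-OE against Vector was 0.12 (SE 0.488), and it was -0.72 without EBF2-OE 3 and 0.66 without Vector 3. In order of mean level the groups were GSK-LSD1 (65.7 ± 3.51 CPM, SD, n = 2), EBF2-OE (24.0 ± 14.9), Vector (22.3 ± 10.03) and Vehicle (11.95 ± 0.880). EBF2-OE and Vector did not differ beyond their spread, and Vector lay above Vehicle by about its own SD. The controls themselves were apart, with a log2 fold change of Vector against Vehicle of 0.90 (SE 0.307), which was 0.36 without Vector 3. In bulk RNA, more cells with GPNMB and more GPNMB RNA per cell cannot be told apart.

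**Figure D1:**
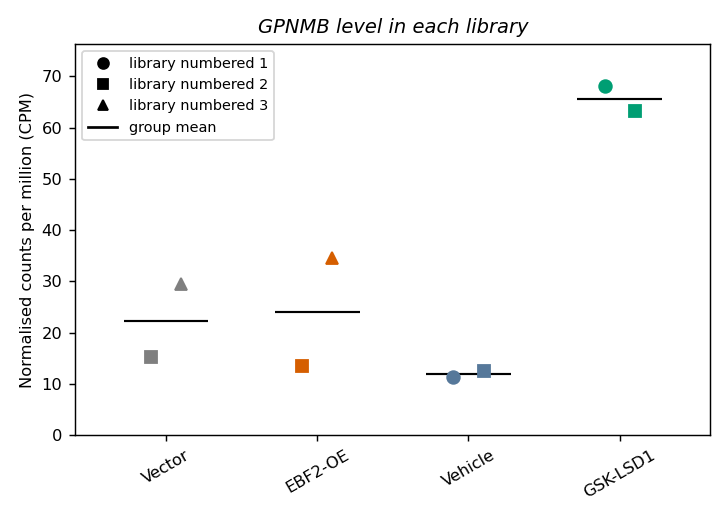
Normalised CPM of GPNMB in each of the 8 libraries, by group (points are libraries, numbered as in the labels, and bars are means). The GSK-LSD1 libraries sit at 68.1 and 63.2 CPM, above the other 6 libraries, and the Vector and EBF2-OE libraries overlap.

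The RNA of the transcription factors themselves did not pass the test in either treatment. Levels between genes are compared in TPM, which corrects for gene length. TFE3 was the most abundant at 73.8 to 94.6 TPM over the 8 libraries, MITF lay at 22.2 to 29.0 and TFEB at 19.6 to 27.1. MITF and TFEB overlapped in level. TFEC had 1 to 6 counts in every library, 0.0119 to 0.0849 TPM, and was not tested.

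MITF, the factor that governs pigment cell identity, had 65.1 and 68.6 CPM in Vehicle and 65.9 and 62.2 in GSK-LSD1. The groups overlapped, with a log2 fold change of -0.07 (95% interval -0.20 to 0.07, adjusted p = 0.515, edgeR). In Vector it had 52.8 and 66.1 CPM and in EBF2-OE 60.6 and 53.4, with a log2 fold change of -0.05 (-0.42 to 0.31).

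TFEB, a main regulator of lysosomal genes, had 32.9 and 29.5 CPM in Vehicle and 29.2 and 31.8 in GSK-LSD1. Its log2 fold change was -0.03 (-0.22 to 0.15, adjusted p = 0.830, edgeR) with GSK-LSD1 and 0.09 (-0.41 to 0.59) with EBF2-OE, where Vector had 35.4 and 27.6 CPM and EBF2-OE 28.9 and 37.8. These groups overlapped as well. TFE3, which is fused to other genes in some kidney cancers, had 107.7 and 104.5 CPM in Vehicle and 104.8 and 115.0 in GSK-LSD1, a log2 fold change of 0.05 (-0.08 to 0.18, adjusted p = 0.622, edgeR). In Vector it had 115.9 and 95 CPM and in EBF2-OE 96.2 and 100.9, a log2 fold change of -0.09 (-0.45 to 0.27). All 3 factors had an adjusted p of 0.9998 in EBF2-OE against Vector.

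RRAGC, the Rag GTPase that with RRAGA or RRAGB recruits mTORC1, had 29.1 and 30.2 CPM in Vehicle and 39.0 and 35.3 in GSK-LSD1. Both treated libraries lay above both controls. The log2 fold change was 0.32 (SE 0.0763, adjusted p = 0.0154, edgeR), or 1.25-fold, which passed the p limit and not the fold limit. In Vector it had 36.3 and 42.1 CPM and in EBF2-OE 31.2 and 39.2, which overlapped (log2 fold change -0.15, 95% interval -0.56 to 0.26). RRAGD, the closely related Rag GTPase, had 0 to 7 counts and was not tested; the 0 counts in GSK-LSD1 2 allow a level of up to 0.132 CPM, by counting error only.

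FLCN, the catalytic part of the folliculin complex, had 27.9 and 26.4 CPM in Vehicle and 33.7 and 28.8 in GSK-LSD1. The treated libraries were the higher, with a log2 fold change of 0.20 (95% interval -0.0022 to 0.40) that did not pass the test (adjusted p = 0.158, edgeR). In Vector it had 42.5 and 46.1 CPM and in EBF2-OE 28.6 and 42.9, a log2 fold change of -0.30 (-0.82 to 0.22) that was -0.04 without EBF2-OE 2 and -0.63 without EBF2-OE 3.

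FNIP1, a partner of FLCN, had 21.5 and 24.8 CPM in Vehicle and 29.1 and 28.8 in GSK-LSD1. The groups did not overlap, and the log2 fold change of 0.32 (SE 0.0902, adjusted p = 0.0312, edgeR) passed the p limit and not the fold limit. In Vector it had 35.2 and 41.2 CPM and in EBF2-OE 31.8 and 30.5. Here both EBF2-OE libraries lay below both Vector libraries, with a log2 fold change of -0.29 (-0.63 to 0.06) that did not pass the test.

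FNIP2, the other partner of FLCN, was the lowest of the tested regulators at 1.32 to 5.85 TPM. It had 6.37 and 7.52 CPM in Vehicle and 9.46 and 10.2 in GSK-LSD1, with no overlap and a log2 fold change of 0.49 (SE 0.131, adjusted p = 0.0242, edgeR), or 1.41-fold, again past the p limit alone. In Vector it had 14.8 and 28.4 CPM and in EBF2-OE 11.02 and 15.5, a log2 fold change of -0.69 (-1.52 to 0.13) that was -0.16 without Vector 3 and -1.07 without Vector 2. The antisense gene C4orf45 overlaps FNIP2 over 14917 bases and had 0 to 2 counts in every library.

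Of the 9 genes other than GPNMB, 7 were tested. With GSK-LSD1 0 of the 7 were called by edgeR, by the limits that called 4.57% of all genes tested, and DESeq2 called 0 as well. At any fold, 3 of the 7 (RRAGC, FNIP1 and FNIP2) had an adjusted p under 0.05, against 18.7% of all genes, and the same number had an unadjusted p under 0.05. The libraries did not overlap for 4 of the 7, against 60.2% of all genes, a share near the background. In EBF2-OE against Vector 0 of the 7 were called, against 0% of all genes, with 0 at an unadjusted p under 0.05 and 0 by DESeq2. The libraries did not overlap for 1 of the 7, against 22.5% of all genes.

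The p values of RRAGC, FNIP1 and FNIP2 in GSK-LSD1 depended on the fit. In 1 fit over all 8 libraries the adjusted p was 0.359 for RRAGC, 0.294 for FNIP1 and 0.546 for FNIP2 (edgeR), and DESeq2 gave 0.0369, 0.0715 and 0.0905. The adjusted p of RRAGC was 0.140 without GSK-LSD1 1, that of FNIP1 was 0.123 to 0.192 and that of FNIP2 0.0616 to 0.159 without Vehicle 1, GSK-LSD1 1 or GSK-LSD1 2 (edgeR). All 3 log2 fold changes stayed above 0 in the 11 alternatives run.

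**Figure D2:**
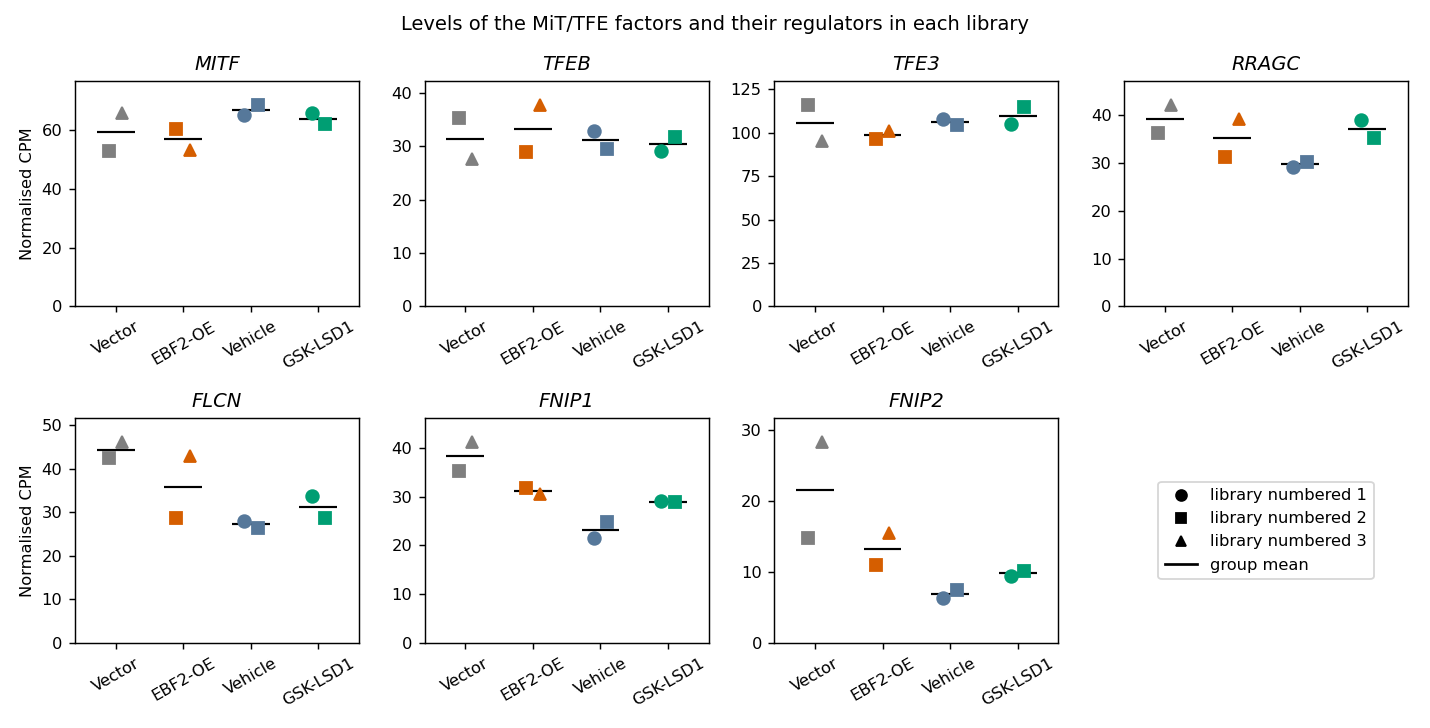
Normalised CPM of the 7 tested genes other than GPNMB in each library, by group (points are libraries and bars are means, each panel with its own scale from 0). The groups overlap for MITF, TFEB and TFE3, and FNIP2 is highest in Vector 3 at 28.4 CPM, with EBF2-OE 3 (15.5) above Vector 2 (14.8).

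The controls differed for the folliculin complex. FLCN was higher in Vector than in Vehicle by a log2 fold change of 0.70 (SE 0.0972, adjusted p = 0.0111, edgeR), FNIP1 by 0.72 (SE 0.128, adjusted p = 0.0170) and FNIP2 by 1.63 (SE 0.321, adjusted p = 0.0215), or 3.10-fold. These are 3 of the 7 tested genes, by limits that called 16% of all genes tested. With RRAGC, at 0.40 (adjusted p = 0.0472), 4 of 7 had an adjusted p under 0.05 at any fold, against 26.8%, and 4 of 7 did not overlap, against 70.8%. MITF (-0.17), TFEB (0.01) and TFE3 (-0.01) did not pass. The 3 calls were lost when either Vehicle library was left out (adjusted p 0.0931 to 0.166), and FNIP2 moved to 1.10 without Vector 3 and to 2.02 without Vector 2. These controls differ in vector, vehicle and possibly run, which cannot be told apart.

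The treatments were set against each other in 1 fit over all 8 libraries, as the log2 fold change with EBF2-OE minus that with GSK-LSD1. For GPNMB the difference was -2.35 (SE 0.579), given as a description. It was -1.20 for FNIP2 (95% interval -2.16 to -0.25, adjusted p = 0.545, edgeR), -0.62 for FNIP1 (-1.01 to -0.24, adjusted p = 0.400), -0.51 for FLCN (-1.09 to 0.07) and -0.48 for RRAGC (-0.91 to -0.04). Single libraries moved these values: FNIP2 was -0.65 without Vector 3, FLCN was -0.25 without EBF2-OE 2 and -0.83 without EBF2-OE 3, and GPNMB was -3.18 without EBF2-OE 3. MITF (0.00), TFE3 (-0.15) and TFEB (0.12) were nearer 0. None of the 7 was called, against 0% of all genes tested, and 0 were called by DESeq2. At any fold 3 had an unadjusted p under 0.05 (edgeR), and the share of all genes at that limit was not counted.

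**Figure D3:**
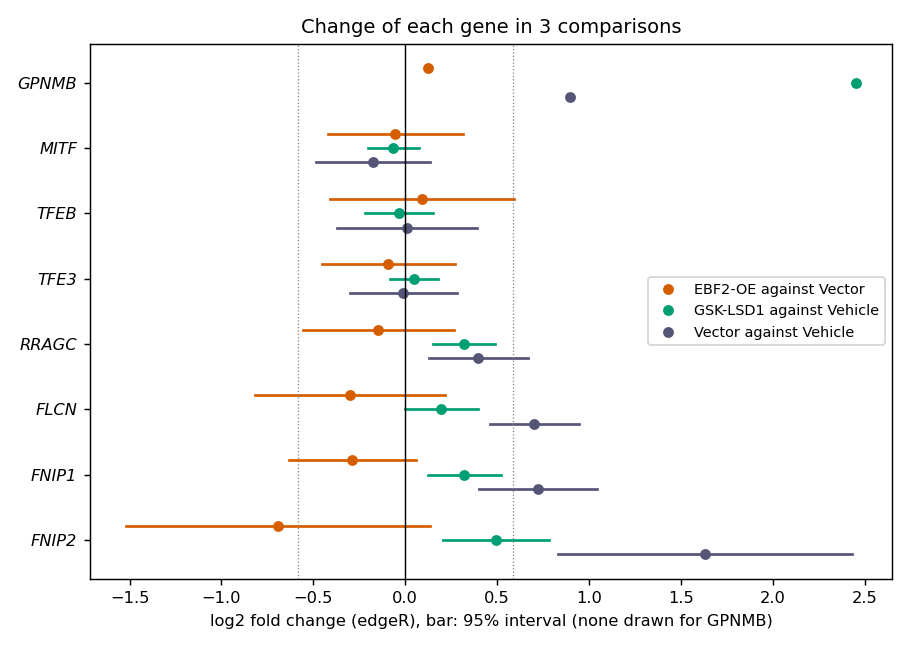
Log2 fold change of 8 genes in 3 comparisons (points, with 95% intervals as bars except for GPNMB, which was selected on its level; dotted lines mark 1.5-fold in either direction). GPNMB lies at 2.45 with GSK-LSD1, the 3 transcription factors lie near 0, and FLCN, FNIP1 and FNIP2 lie to the right in Vector against Vehicle.

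The other genes of the pathway were read from 3 lists of 77 genes in all, of which 76 were tested. With GSK-LSD1 3 of them rose and 0 fell (edgeR), against 4.57% of all genes called in either direction, a share no higher than that background. At any fold 24 had an adjusted p under 0.05, against 18.7% of all genes. The 3 are in the list of autophagy and lysosome targets of TFEB and TFE3. In that list 28 of 29 genes were tested, with a median log2 fold change of 0.20 beside -0.01 over all genes tested, 22 above 0 and 6 below, and 15 of the 28 had an adjusted p under 0.05 at any fold, against the same 18.7%. In EBF2-OE against Vector the median of the list was 0.03 beside 0.00, and 0 of the 76 genes of the 3 lists were called by edgeR or by DESeq2.

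CTSD, the lysosomal protease cathepsin D, had 501.4 and 473.3 CPM in Vehicle and 775.2 and 835.2 in GSK-LSD1. Its log2 fold change was 0.72 (SE 0.0510, adjusted p = 1.2e-05, edgeR). NEU1, the lysosomal sialidase, had 31.8 and 32.7 CPM in Vehicle and 56.6 and 61.1 in GSK-LSD1, a log2 fold change of 0.86 (SE 0.0688, adjusted p = 2.8e-05). PPARGC1A, a coactivator of mitochondrial genes, had 2.88 and 3.65 CPM in Vehicle and 6.55 and 7.02 in GSK-LSD1, a log2 fold change of 1.05 (SE 0.164, adjusted p = 0.00173). All 3 treated pairs lay above their Vehicle controls, and the PPARGC1A call was lost in 1 fit over all 8 libraries (adjusted p = 0.292, edgeR). The other control was apart from Vehicle for these genes. In Vector 2 and 3 NEU1 had 61.7 and 64.9 CPM and PPARGC1A 5.29 and 7.62, near their levels in GSK-LSD1. CTSD had 335.0 and 337.7 CPM there, below Vehicle. The log2 fold changes of Vector against Vehicle were 0.97, 0.98 and -0.54. The promoters of the 3 genes each held a CLEAR core, at -47 in CTSD, -127 in NEU1 and -123 in PPARGC1A. These were looked at after the values were seen, in a list of targets of factors that are known to bind this sequence. The uncalled genes of the list were not searched, so that the matches cannot be tied to the change.

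In the list of Rag, Ragulator, GATOR and mTORC1 genes 0 of 35 were called with GSK-LSD1 (edgeR), against 4.57% of all genes tested. At any fold 7 had an adjusted p under 0.05, a share near the 18.7% of all genes, and the median was 0.01. The most abundant members, LAMTOR5 and LAMTOR2 of the lysosomal scaffold Ragulator, had log2 fold changes of 0.33 (adjusted p = 0.00373) and 0.11 (adjusted p = 0.330). Among 14 kinases, phosphatases and other factors that act on MiT/TFE proteins 0 were called, against the same 4.57%. At any fold 2 had an adjusted p under 0.05, below the 18.7% of all genes, and the median was -0.04. In lists this short, 0 called is near the background. The most abundant there, the ubiquitin ligase STUB1 and the autophagy protein GABARAP, stood at 0.07 and 0.19. Of the 3 lists, 6 genes were called higher and 4 lower in Vector against Vehicle, out of 76 and against 16% of all genes, a share below the background. The autophagy and lysosome list was also shifted between these controls. Its median log2 fold change was 0.14 beside 0.00 over all genes tested, with 19 above 0 and 9 below. At any fold 12 of its 28 tested genes had an adjusted p under 0.05 (edgeR), against 26.8% of all genes.

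**Figure D4:**
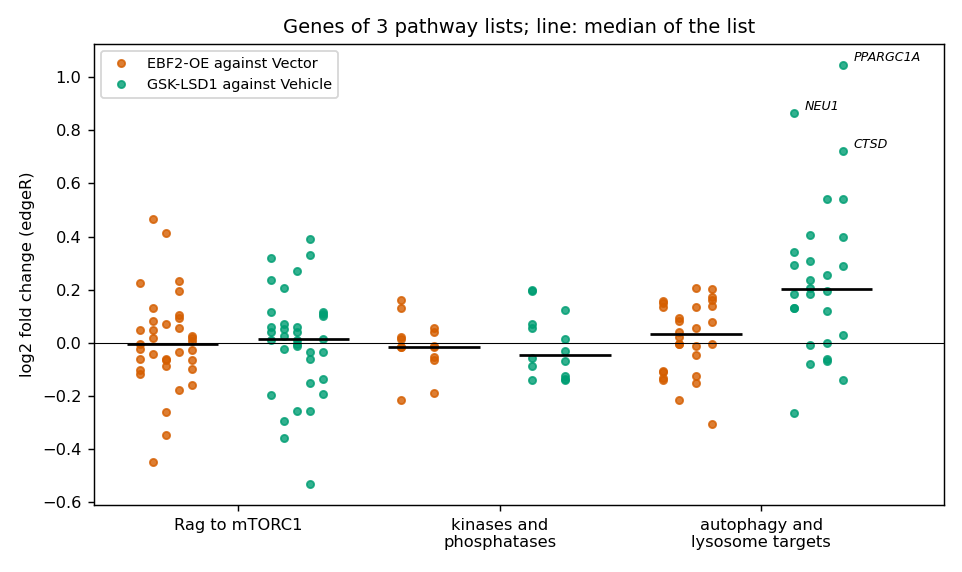
Log2 fold change of each tested gene of 3 pathway lists (points) with EBF2-OE and with GSK-LSD1, with the median of each list as a line. The autophagy and lysosome list has a median of 0.20 with GSK-LSD1, and its 3 called genes CTSD, NEU1 and PPARGC1A are named.

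Genes of pigment cells and of macrophages and osteoclasts were mostly scarce, whereas some fibroblast markers were not. Of 12 pigment cell genes driven by MITF, 7 had fewer than 10 counts in every library, and TYR and TRPM1 were at 0. Of the 12, 3 were tested with 0 called in either treatment, against 4.57% of all genes with GSK-LSD1 and 0% with EBF2-OE. The summed level of the 12 was 24.7 to 27.3 TPM in Vehicle and 26.4 to 27.5 TPM in GSK-LSD1. Most of it came from MC1R, the melanocortin receptor, at 18.8 and 20.1 TPM in Vehicle and 19.5 TPM in each GSK-LSD1 library. Of 13 macrophage and osteoclast markers, 8 had fewer than 10 counts in every library, and C1QA was at 0. The summed level was 7.65 to 8.55 TPM in Vehicle and 8.91 to 9.79 TPM in GSK-LSD1. The largest part came from CTSK, at 3.96 and 4.60 TPM in Vehicle and 5.65 and 4.90 in GSK-LSD1. CSF1R had 0.848 and 1.08 TPM in Vehicle and 1.34 and 1.42 in GSK-LSD1. With GSK-LSD1 4 were tested and 0 called, against 4.57% of all genes tested. Their median log2 fold change was 0.44, with 3 above 0 and 1 below. The libraries did not overlap for any of the 4, against 60.2% of all genes. The 8 epithelial markers summed to 7162 to 7275 TPM in Vehicle and 5375 to 5427 TPM in GSK-LSD1, where KRT7 fell by 0.69 on the log2 scale. Of the 6 tested, KRT8 (-0.30) and KRT18 (-0.45) were also below 0, and CLDN4 (0.54), CDH1 (0.20) and MUC1 (0.16) were above 0. Only KRT7 was called, against 4.57% of all genes tested. At any fold 4 of the 6 had an adjusted p under 0.05 (edgeR), against 18.7% of all genes. The 6 fibroblast markers summed to 57.7 to 58.7 TPM in Vehicle and 62.6 to 65.2 TPM in GSK-LSD1. Of these, 0 had fewer than 10 counts in every library, and COL1A1 had 1419 to 2299 counts. With GSK-LSD1 all 6 were tested and 0 called, against 4.57% of all genes tested. At any fold 2 had an adjusted p under 0.05 (edgeR), against 18.7%. The median log2 fold change of the 6 was 0.34, with 4 above 0 and 2 below. The libraries did not overlap for 5, against 60.2% of all genes. The part of these shifts in the GPNMB level was not tested. The protease ADAM10 and the binding partners SDC4 and CD44 act on or with the GPNMB protein. With GSK-LSD1 0 of these 3 were called, against 4.57% of all genes tested, which is near the background. Their log2 fold changes were 0.03, -0.05 and -0.07.

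The genes most like GPNMB were sought by Pearson correlation of log2 CPM over the 8 libraries among 16557 genes, as a description. They were CLN3 (r = 0.988), SQOR (0.978), FGFBP1 (0.978), LINC00473 (0.971) and B2M (0.964). CLN3 encodes a lysosomal membrane protein and had 44.7 and 43.4 CPM in Vehicle and 64.1 and 61.9 in GSK-LSD1. FGFBP1, a secreted carrier of fibroblast growth factors, had 12.7 and 12.4 CPM in Vehicle and 37.0 and 43.4 in GSK-LSD1. It had 14.2 and 27.3 CPM in Vector and 16.3 and 28.9 in EBF2-OE. Like GPNMB, all the genes named here were higher in the library numbered 3 within Vector and within EBF2-OE. They were chosen for following GPNMB over these same 8 libraries, so that this shared pattern follows from the choice. The 8 points fall in 4 groups and are not independent of them.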

How the data were processed

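The data are 8 RNA-seq libraries of SW1990 cells. The authors sequenced poly(A) RNA in read pairs, mapped it with HISAT2 (default settings) to hg38 and summed reads by gene in HTSeq (versions and strand setting not given in the sources used here). Without strand, reads of a gene and its antisense partner cannot be told apart. The authors deposited raw counts and TPM, which was checked to follow from the counts and gene lengths. The tests used edgeR 4.0.16 under R 4.3.3 on the deposited counts (TMM, filterByExpr with a minimum count of 10, quasi-likelihood test, two-sided, Benjamini-Hochberg over all genes tested), on the 4 libraries of the groups compared, or on all 8 for the difference of the 2 effects. A call needed a fold change above 1.5 and an adjusted p under 0.05. CPM used TMM factors of all 8 libraries.

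The members and gene lists were chosen with earlier results of these data known. Named genes are the 10 members, the called genes of each list (at most 4 a list and comparison, otherwise the 2 with the highest TPM) and the 5 genes most like GPNMB. RRAGD was too low for the same search. KRT8, KRT18, MUC1, KRT19, EPCAM, CDH1, CLDN4, MC1R, TYR, TRPM1, C1QA, ADAM10, C4orf45 and the neighbours of GPNMB are named beside this rule. Motif matches were found by exact letters in RefSeq promoters. Alternatives were DESeq2 1.42.0, its size factors, limma 3.58.1 on log2(CPM + 1), no low-count filter, a minimum of 10 counts per library, a replicate block, a single fit to the 8 libraries, unadjusted p, no fold limit and leaving out each library. The edgeR steps were tested on simulated data. Protein sequences were not used here.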

Additional observations from a re-analysis of the deposited data

How the results depend on the processing

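Over 506 alternative values of single genes, 480 had the sign of the reported value and 26 the opposite sign, all of them of genes not called in that comparison or of GPNMB with EBF2-OE. Called genes lost their call in 12 and genes gained one in 6. With GSK-LSD1, dropping the fold limit gave 3 of the members other than GPNMB and 24 genes of the pathway lists, and leaving out a library gave 0 to 1 members (FNIP2, without Vehicle 2) and 3 to 4 list genes. In Vector against Vehicle leaving out a library gave 0 to 3 members. For the difference of the 2 effects, unadjusted p gave 2 members (FNIP1 and FNIP2), against 718 of all 16558 genes tested. In the same comparison no low-count filter gave 1 (FNIP2). The cause was not tested. GPNMB with GSK-LSD1 stayed between 2.36 and 2.53 over 11 alternatives.

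The replicate numbers do not pair the libraries by the labels. With 2 pairs a comparison, the differences of same-numbered libraries correlated at 0.30 for EBF2-OE and Vector and -0.01 for GSK-LSD1 and Vehicle. With the replicate block, 0 members were called in EBF2-OE against Vector, 0 with GSK-LSD1 and 0 for the difference, and 3 list genes with GSK-LSD1, so that no count changed. With 2 libraries a group and a spread (biological coefficient of variation) of 19% in EBF2-OE against Vector and 5.87% in GSK-LSD1 against Vehicle, smaller changes were detectable in the latter. Leaving out a library leaves 1 in a group, which is then assumed to vary like the others.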

Other observations

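The tested genes nearest to GPNMB on chromosome 7, 3 on each side, were not called with GSK-LSD1 (edgeR). With 4.57% of all genes tested called, none among so few genes is near the background. NUP42, whose nearest end lies 45755 bases before GPNMB, had a log2 fold change of 0.06 (SE 0.0873), and KLHL7 had 0.01 (SE 0.0748). The divergent transcript KLHL7-DT had -0.76 (SE 0.412, adjusted p = 0.229). On the other side MALSU1, 23634 bases after GPNMB, had -0.19 (SE 0.0684, adjusted p = 0.0788), IGF2BP3 had 0.13 (SE 0.0733) and the pseudogene RPS2P32 had -0.13 (SE 0.145).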
